A study of Mus musculus with 3 samples.

Results

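The genes described here encode the receptors for extracellular ATP and adenosine, the enzymes that break these ligands down, and the transporters and channels that move them. They were 38 of the 46073 genes of an RNA-seq table of mouse medial prefrontal cortex (mPFC). They were chosen by name, and each of the 38 matched 1 row of the table. The RNA came from naive C57BL/6 mice aged 3 months. The series has 3 samples, namely DNA pulled down with a methylcytosine antibody (MeDIP), input DNA and RNA, and only the RNA values were analysed here. Its design text gives 5 MeDIP replicates, 5 input samples pooled for sequencing and 3 RNA replicates, but the RNA table holds 1 value per gene. There was no treatment and no control group.

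ATP leaves brain cells through channels and vesicles and acts on P2X receptors, which are ATP-gated cation channels, and on P2Y receptors, which couple to G proteins. Ectonucleotidases at the cell surface cut ATP to ADP, AMP and adenosine, and adenosine acts on its own G protein-coupled receptors. Equilibrative transporters then carry adenosine into cells, where adenosine kinase or adenosine deaminase removes it. In cortex this system is known for the inhibition of transmitter release by adenosine and for the sensing of ATP and ADP by microglia, the resident immune cells of the brain.

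Of the 38 genes, 21 stood at or above 1 FPKM, the level taken here as detected. FPKM counts fragments relative to transcript length in kilobases and to each 1000000 mapped fragments, so levels of different genes can be set side by side. Of all rows 31.5% were detected, and of protein-coding rows 58.6%, so the 38 genes as a set were near the share of protein-coding genes. Their median was 1.76 FPKM, against 2.59 FPKM for protein-coding rows and 0.0414 FPKM for all rows. At or above 10 FPKM were 7 of the 38, against 29.1% of protein-coding rows. These were Panx2, Adora1, Adk, P2ry12, Entpd6, Panx1 and Slc29a1, and they held 74.4% of the summed FPKM of the 38. The 19 receptor genes had a median of 0.764 FPKM with 8 detected. The 19 genes of release, breakdown and uptake had a median of 4.005 FPKM with 13 detected. In each role 1 gene held from 42.5% to 98.7% of the summed level.

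With 1 value per gene there is no replicate spread. The values are therefore given without an error, and differences between genes were not tested. How many fragments were sequenced is unknown, and intervals for counting error could not be computed. In bulk tissue, fewer cells of a type and less RNA per cell cannot be told apart. In RefSeq 18 of the 38 genes overlap the span of another gene, and 11 of them that of a protein-coding gene. Marker genes of cell types were looked up. The lists held no marker of cortex or of mPFC, so they could not check the region. All 8 pan-neuronal markers were detected, from 30.6 FPKM for Elavl4 to 1279 FPKM for Snap25. Markers of astrocytes (10 of 10), oligodendrocytes (9 of 9), their precursors (6 of 6), microglia (10 of 10) and endothelial and mural cells (10 of 10) were detected too. For tissue at the edge of a dissection, 7 of 7 markers of choroid plexus and ependyma were detected (1.72 to 566 FPKM). Detected too were 7 of 8 for meninges, 8 of 11 for striatal neurons and 5 of 8 for blood and platelets. Of protein-coding rows 58.6% were detected.

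**Figure D1:**
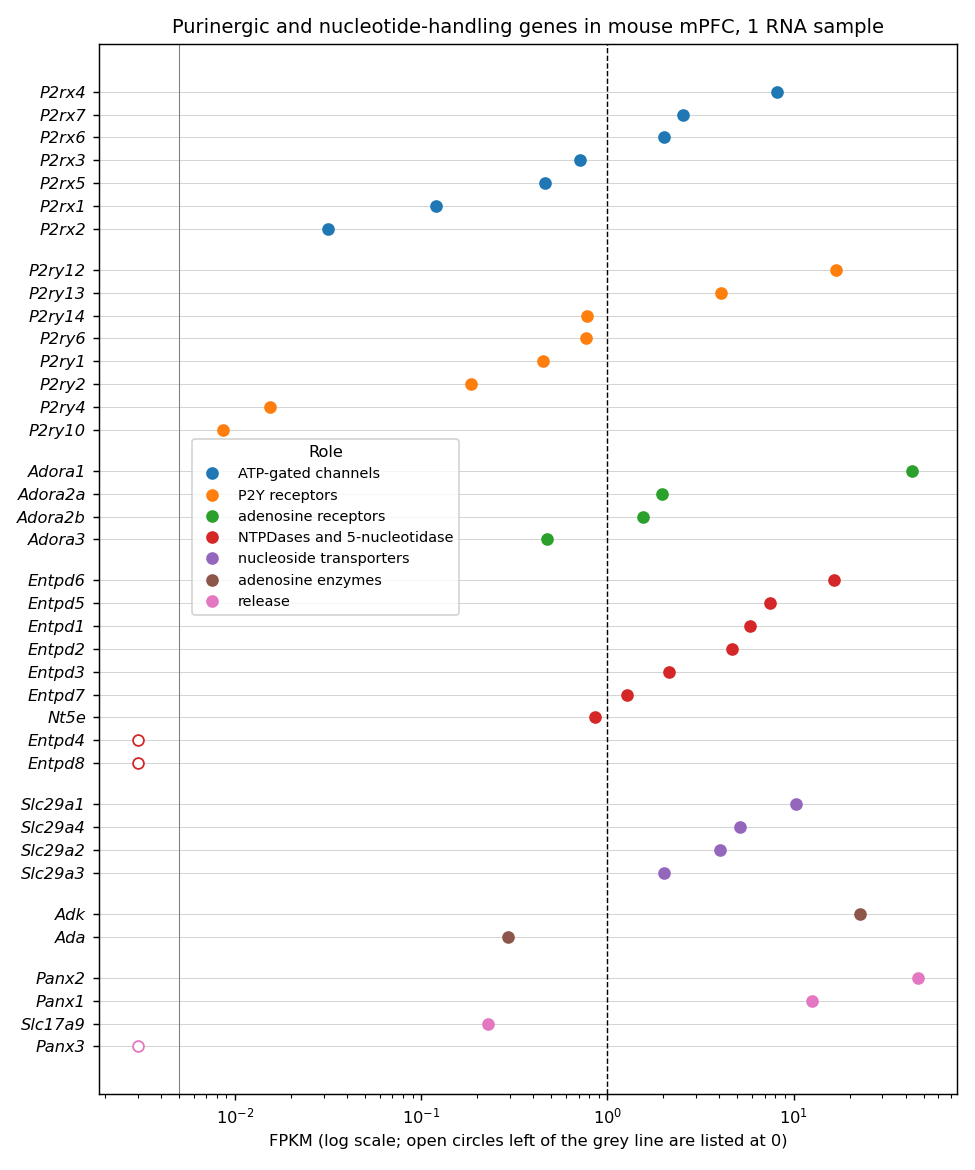
FPKM of the 38 genes on a log axis, grouped by role and sorted within each role; each point is the value of 1 RNA sample, and the dashed line marks 1 FPKM. Panx2 at 46.9 and Adora1 at 43.1 FPKM stand highest, 17 genes lie left of the dashed line, and 3 open circles mark genes listed at 0.

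Among the release genes, Panx2 and Panx1 were high and the vesicular nucleotide transporter was low. Panx2, a pannexin enriched in the central nervous system (chromosome 15, 89059057 to 89073566, GRCm38), was the highest of all 38 genes at 46.9 FPKM. Panx1, the pannexin best known as an ATP release channel (chromosome 9, 15005785 to 15045478), stood at 12.5 FPKM, 0.267 times Panx2. Panx3, a pannexin of skin and skeleton, was listed at 0. Slc17a9, which loads ATP into vesicles, stood at 0.227 FPKM, and Panx1 was 55.0-fold above it, or 11.003-fold with 1 FPKM added to each value, a scale that weighs low values less. Panx2 lay above 93.1% of protein-coding rows, Panx1 above 74.98% and Slc17a9 above 32.1%. Part of the Panx2 span, 16.3%, overlaps the long non-coding gene 1810021B22Rik, which stood at 4.47 FPKM.

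Of the 7 ATP-gated channel genes, 3 were detected, and P2rx4 held 57.9% of their summed level. P2rx4 (chromosome 5, 122707518 to 122729739), a channel of neurons and microglia, stood at 8.13 FPKM. P2rx7, which needs high ATP to open and drives inflammasome activation in immune cells, lies 15.2 kb away and stood at 2.56 FPKM. P2rx4 was 3.17-fold above P2rx7. P2rx6, a subunit that forms functional channels poorly on its own, followed at 2.02 FPKM, 0.249 times P2rx4. The other 4 were below 1 FPKM. P2rx3, a subunit of sensory neurons, stood at 0.714 FPKM and P2rx5 at 0.462 FPKM. P2rx1, the channel of smooth muscle and platelets, stood at 0.120 FPKM and P2rx2, which pairs with P2rx3 in sensory neurons, at 0.0315 FPKM. The platelet genes Pf4 and Gp9 stood at 1.99 and 0.352 FPKM, and the part of blood in the P2rx1 value was not tested. The 3 detected channels spanned a 4.02-fold range. The P2rx4 span overlaps the calcium-dependent kinase gene Camkk2, at 49.5 FPKM, over 51.1% of its length. Whether counting used strand is not stated, so the P2rx4 value is uncertain.

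Of the 8 P2Y genes, 2 were detected, and both encode ADP receptors known from microglia. P2ry12 (chromosome 3, 59216271 to 59262985) stood at 16.9 FPKM and held 72.9% of the summed P2Y level. It encodes the Gi-coupled ADP receptor that guides microglial processes to sites of ATP release. P2ry13, a related ADP receptor, stood at 4.09 FPKM, and P2ry12 was 4.13-fold above it. The other 6 were below 1 FPKM. P2ry14, the receptor for UDP-glucose, was at 0.773 FPKM and P2ry6, the receptor for UDP, at 0.764 FPKM. P2ry1, a Gq-coupled ADP receptor, was at 0.453 FPKM, so P2ry12 was 37.3-fold above it, or 12.3-fold on the FPKM + 1 scale. P2ry2, which responds to ATP and UTP, was at 0.186 FPKM and P2ry4, a UTP receptor, at 0.0155 FPKM. P2ry10, known as a receptor for lysophosphatidylserine, was lowest at 0.00864 FPKM. Its neighbour and near relative P2ry10b was at 0.108 FPKM, and the division of reads between such relatives is uncertain. Summed by signalling, the 3 Gi-coupled P2Y genes reached 21.8 FPKM against 1.42 FPKM for the 4 Gq-coupled ones, a ratio of 15.3.

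P2ry12, P2ry13 and P2ry14 lie close together on chromosome 3, with 5.39 kb between P2ry12 and P2ry13 and 54.4 kb between P2ry13 and P2ry14. Within this cluster P2ry12, at 16.9 FPKM, was 21.9-fold above P2ry14, at 0.773 FPKM, or 10.1-fold on the FPKM + 1 scale. All 3 P2Y genes lie inside the span of Med12l, a Mediator subunit gene at 3.21 FPKM. The receptor gene Gpr171, which is not a P2Y gene, also lies inside that span and stood at 0.00841 FPKM. Reads of Med12l introns cannot be separated from these genes with certainty where strand is not used. P2ry12 stood 5.27-fold above Med12l and P2ry14 at 0.241 times it.

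**Figure D2:**
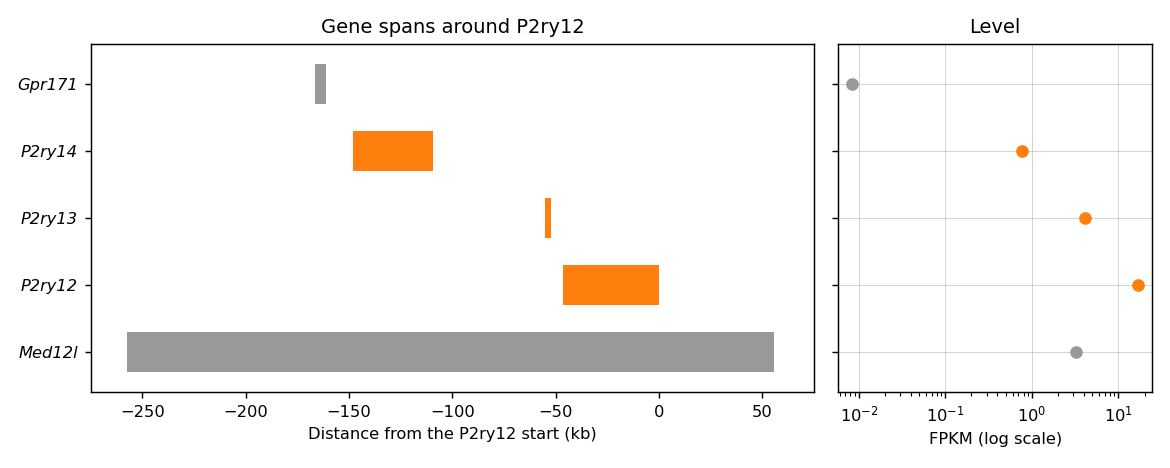
Left, spans of P2ry12, P2ry13 and P2ry14 (orange) and of other genes (grey) in kb from the P2ry12 start; right, the FPKM of each gene in 1 RNA sample on a log axis. Of the genes drawn, P2ry12 at 16.9 FPKM is highest and Gpr171 at 0.00841 FPKM lowest, and Med12l at 3.21 FPKM spans the whole cluster.

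The stretches just before the start sites of this cluster are shown because they differ from those of most genes detected in this tissue in their content of CpG, the dinucleotide that carries DNA methylation in mammals. The 250 bases before the most upstream annotated start are given 5′ to 3′ from RefSeq, build GRCm38.p6, with each CG in capitals, and all 4 genes lie on the minus strand. P2ry2 is shown with them as a receptor of the same family with many CG and a level of 0.186 FPKM. The stretches are chr3:59262986-59263235 for P2ry12, chr3:59210883-59211132 for P2ry13, chr3:59153493-59153742 for P2ry14 and chr7:101012054-101012303 for P2ry2.
P2ry12: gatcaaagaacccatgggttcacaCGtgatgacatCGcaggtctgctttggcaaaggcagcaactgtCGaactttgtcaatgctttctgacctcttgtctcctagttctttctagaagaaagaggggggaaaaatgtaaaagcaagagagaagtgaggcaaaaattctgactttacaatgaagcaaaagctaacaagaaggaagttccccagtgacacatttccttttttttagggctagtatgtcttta
P2ry13: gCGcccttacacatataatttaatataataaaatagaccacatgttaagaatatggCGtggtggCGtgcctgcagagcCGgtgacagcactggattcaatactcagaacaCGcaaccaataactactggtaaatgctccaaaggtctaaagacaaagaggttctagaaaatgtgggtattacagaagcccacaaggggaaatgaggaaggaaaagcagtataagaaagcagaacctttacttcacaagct
P2ry14: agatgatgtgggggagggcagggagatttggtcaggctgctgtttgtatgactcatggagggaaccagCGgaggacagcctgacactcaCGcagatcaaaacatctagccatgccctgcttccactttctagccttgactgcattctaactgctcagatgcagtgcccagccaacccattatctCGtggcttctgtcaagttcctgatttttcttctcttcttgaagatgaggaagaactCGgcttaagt
P2ry2: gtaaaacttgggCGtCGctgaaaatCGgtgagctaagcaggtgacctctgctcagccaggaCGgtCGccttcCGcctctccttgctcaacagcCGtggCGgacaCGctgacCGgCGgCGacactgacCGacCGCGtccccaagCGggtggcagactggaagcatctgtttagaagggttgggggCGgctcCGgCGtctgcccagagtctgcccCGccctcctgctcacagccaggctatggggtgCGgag
P2ry12 has 3 CG in this stretch, P2ry13 has 5 and P2ry14 has 4, against 21 for P2ry2.

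Set beside 10 microglial markers, P2ry12 lay within their range and P2rx4, P2rx7 and the other P2Y receptors lay in its lower part or below it. The lowest marker was Itgam at 6.92 FPKM, and the median of the 10 was 11.1 FPKM. P2ry12 was at 1.53 times that median, above 6 of the 10 markers, between Trem2 at 11.5 and Csf1r at 18.0 FPKM. P2rx4 was above 2 of them. P2ry13 at 0.370 times, P2rx7 at 0.232 times and P2ry14 and P2ry6 at 0.0699 and 0.0691 times the median were below all 10. The part of other cells in the P2rx4 and P2rx7 values was not tested.

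**Figure D3:**
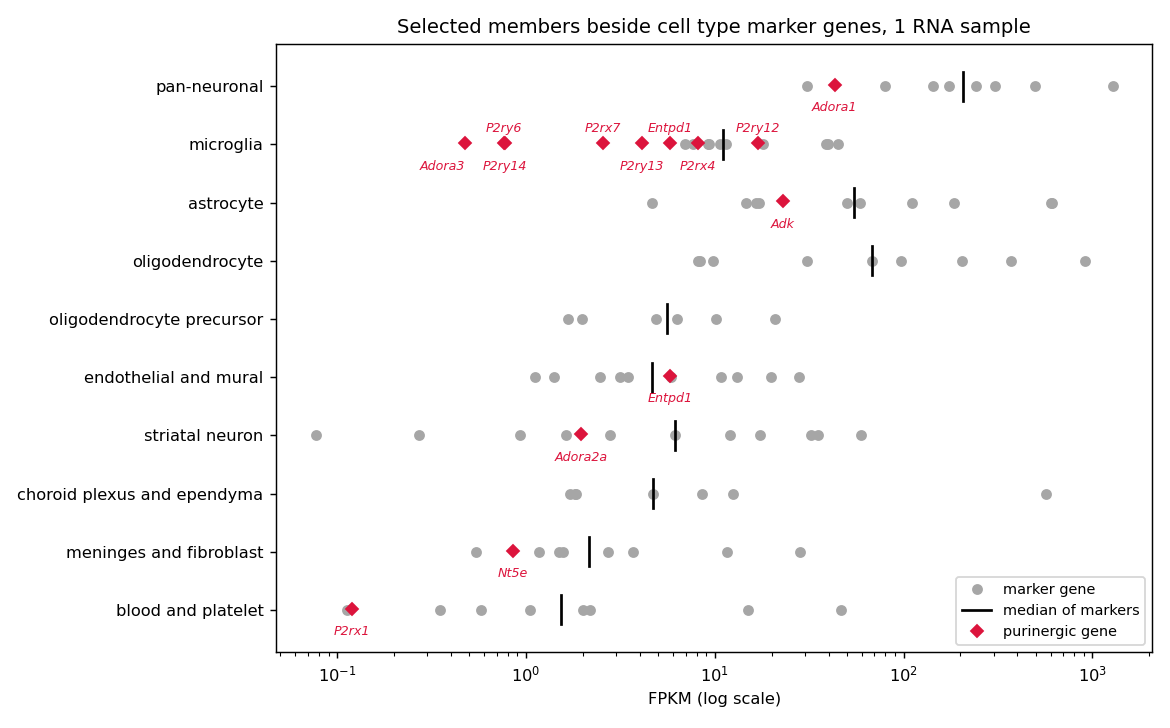
FPKM on a log axis of marker genes (grey circles) for each cell type, with their median (black bar), and of selected purinergic genes (red diamonds) in 1 RNA sample. P2ry12 at 16.9 FPKM lies among the microglial markers, and Adora2a at 1.96 FPKM lies between the striatal markers Drd2 and Drd1.

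Of the 5 cell surface enzymes that break down extracellular nucleotides, 3 passed the detection level (median 2.13 FPKM). With the 4 related intracellular or secreted enzymes, 6 of 9 did. Entpd1, known as CD39, cuts ATP and ADP to AMP and is typical of microglia and endothelium. It stood at 5.81 FPKM (chromosome 19, 40612366 to 40741602). That was below all 10 microglial markers, at 0.525 times their median. Of 10 endothelial and mural markers it was above 5, at 1.25 times their median. The part of each cell type in its value was not tested. Entpd2, which prefers ATP and so yields ADP, stood at 4.64 FPKM, and Entpd1 was 1.25 times Entpd2. Entpd3, a surface enzyme of neurons, stood at 2.13 FPKM. Entpd8, the surface enzyme of liver, was listed at 0. Nt5e, known as CD73, makes adenosine from AMP and stood at 0.855 FPKM, just under the detection level. Entpd1 was 6.80-fold above Nt5e, or 3.67-fold on the FPKM + 1 scale. Among meningeal and fibroblast markers, Nt5e was above 1 of 8, Aox3 at 0.543 FPKM, and the part of meninges in its value was not tested.

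The intracellular or secreted NTPDases were higher in sum than the surface NTPDases, at 25.2 against 12.6 FPKM, a ratio of 2.001. Entpd6 led them at 16.4 FPKM (chromosome 2, 150748980 to 150771675) and held 42.5% of the level of all 9 enzymes. Entpd5, an enzyme of the endoplasmic reticulum, stood at 7.49 FPKM, 0.456 times Entpd6. Entpd7 stood at 1.27 FPKM, and its span shares 600 bases with Cox15, which stood at 10.2 FPKM. Entpd4, a Golgi enzyme, was listed at 0, and so was Entpd4b, a copy of it 189 kb away on chromosome 14. A value of 0 can be a failed estimate, since the mitochondrial mRNAs mt-Co1 and mt-Cytb were also listed at 0. The sum for these enzymes is thus uncertain for Entpd4.

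Of the 4 adenosine receptor genes, Adora1 held 91.5% of the summed level. Adora1 (chromosome 1, 134199215 to 134235457) encodes the Gi-coupled receptor through which adenosine reduces transmitter release. It stood at 43.1 FPKM, above 92.3% of protein-coding rows and above 1 of the 8 pan-neuronal markers. Adora2a, the Gs-coupled receptor of striatal indirect pathway neurons (chromosome 10, 75316877 to 75334792), stood at 1.96 FPKM, and Adora1 was 22.0-fold above it. Adora2b, a Gs-coupled receptor of low affinity, stood at 1.55 FPKM, within 1.26-fold of Adora2a. Adora3, a Gi-coupled receptor, stood at 0.477 FPKM, and Adora1 was 90.4-fold above it, or 29.9-fold on the FPKM + 1 scale. The span of Adora3 lies wholly inside that of Tmigd3, at 0.0936 FPKM, so the split between them is uncertain. The Gi-coupled genes summed to 43.6 FPKM against 3.51 FPKM for the Gs-coupled ones, a ratio of 12.4.

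The level of Adora2a was close to those of other genes of striatal indirect pathway neurons. Drd2 stood at 1.63 FPKM and Gpr6 at 0.926 FPKM. Of the 11 striatal markers, 4 were below Adora2a, among them the transcription factor genes Six3 at 0.272 and Isl1 at 0.0772 FPKM. The highest, Ppp1r1b, was at 59.6 FPKM, and cortical neurons express it too. The part of striatal tissue in the Adora2a value was not tested.

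The stretch before the Adora1 start is shown as the CG-rich counterpart of the P2ry12 cluster (chr1:134235458-134235707, minus strand, GRCm38.p6, RefSeq, each CG in capitals).
Adora1: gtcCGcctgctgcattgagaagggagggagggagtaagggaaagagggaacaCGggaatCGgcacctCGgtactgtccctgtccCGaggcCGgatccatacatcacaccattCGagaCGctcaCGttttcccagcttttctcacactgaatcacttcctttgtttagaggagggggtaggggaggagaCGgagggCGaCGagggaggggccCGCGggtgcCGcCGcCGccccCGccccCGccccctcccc
It has 19 CG in 250 bases, against the 3 to 5 of P2ry12, P2ry13 and P2ry14 shown above.

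All 4 equilibrative transporter genes passed the detection level, at a median of 4.60 FPKM and within a 5.10-fold range. Slc29a1, which encodes ENT1, the main adenosine transporter of the plasma membrane (chromosome 17, 45585200 to 45599618), stood at 10.2 FPKM. Slc29a2, encoding the related ENT2, stood at 4.005 FPKM, and Slc29a1 was 2.56-fold above it. Slc29a4, which encodes a plasma membrane monoamine transporter, stood at 5.19 FPKM, 0.506 times Slc29a1. Slc29a3, an intracellular transporter, was lowest at 2.01 FPKM, 0.196 times Slc29a1.

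Of the enzymes that remove adenosine inside cells, the kinase was high and the deaminase low. Adk, which phosphorylates adenosine to AMP and is found mainly in astrocytes in adult brain (chromosome 14, 21052574 to 21448569), stood at 22.9 FPKM, above 4 of 10 astrocyte markers. Ada, which turns adenosine into inosine (chromosome 2, 163726571 to 163750239), stood at 0.292 FPKM. Adk was 78.2-fold above Ada, or 18.5-fold on the FPKM + 1 scale. Adk lay above 84.8% and Ada above 33.3% of protein-coding rows.

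Over 24 pairs of paralogs or of genes of the same step, 19 were at least 2-fold apart on the FPKM + 1 scale, which understates differences between low genes. Some genes, among them P2ry12, Adora1, P2rx4 and Panx1, entered several pairs, so the pairs are not separate. The share over pairs of other genes was not computed, so 19 of 24 has no background beside it. The first gene listed was higher in 14 pairs and the second in 5, but the order within a pair carries no meaning. The 5 pairs under 2-fold were Adora2a with Adora2b, P2ry1 with P2ry2, Entpd1 with Entpd2, Entpd2 with Entpd3, and Slc29a4 with Slc29a1. P2ry1 and P2ry2 were 2.44-fold apart in FPKM itself and 1.23-fold on the FPKM + 1 scale, at 0.453 and 0.186 FPKM.

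Other genes of nucleotide and nucleoside metabolism passed the detection level in 26 of 34 cases (76.5%, median 5.59 FPKM), against 58.6% of protein-coding rows. The highest were Enpp2 at 148 FPKM, the salvage enzyme gene Hprt at 84.1, the adenylate kinase genes Ak1 at 66.1 and Ak5 at 55.8, and the guanine deaminase gene Gda at 43.9 FPKM. Enpp2 encodes autotaxin, which is abundant in choroid plexus and oligodendrocytes. The choroid plexus marker Ttr stood at 566 FPKM and the myelin gene Mbp at 912 FPKM, each the highest of its marker list. The medians of these lists were 4.72 FPKM for choroid plexus and ependyma and 68.2 FPKM for oligodendrocytes. The part of these cells in the Enpp2 value was not tested. The 5 adenylate kinases ran from 8.92 to 66.1 FPKM and the 6 intracellular nucleotidases from 1.68 to 36.2 FPKM, and each of these 6 was above Nt5e. The concentrative transporters Slc28a1, Slc28a2 and Slc28a3 stood at 0.159 FPKM or less, against 2.01 FPKM for the lowest equilibrative one. The connexin gene Gja1 stood at 38.5 FPKM, and Calhm1, an ATP release channel of taste cells, was listed at 0.

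Promoter CpG content, a feature not used to choose the genes, was computed in windows of 300 bases, 250 before and 50 after the most upstream start, for the 29 members with a RefSeq promoter entry. The 9 without one were P2rx2, P2rx3, P2rx5, P2ry6, Adora2a, Entpd4, Panx2, Panx3 and Slc17a9. CpG observed over expected divides the number of CG by the number that the C and G content would give by random order. At 0.6 or more, taken here as CpG-rich, were 16 of the 29 promoters, against 49.6% of 16564 protein-coding genes. Of these 16 genes 12 were detected, against 87.3% of CpG-rich protein-coding genes. Of the 13 CpG-poor members 7 were detected, against 30.5% of CpG-poor protein-coding genes. The class of Slc29a1, among these 7, depends on the start used. It had 8 windows, at 0.526 in the most upstream and 0.794 in the highest. The 19 detected members had a median of 0.701 and the 10 others of 0.241. Over protein-coding genes the medians were 0.771 for those detected and 0.217 for the others.

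Most members stood between the quartiles of protein-coding genes with a like promoter. Above the upper quartile of their class were 5 of the 29 (17.2%) and below the lower quartile 6 (20.7%), against at most 25% of protein-coding genes on each side by construction. P2ry12, at an observed over expected of 0.302 and 16.9 FPKM, was above the upper quartile of 3.79 FPKM of the 1146 protein-coding genes from 0.3 to 0.4. P2rx6 at 0.152 and Adora3 at 0.0588 were also above the upper quartile of their classes, which were 0.284 and 0.0290 FPKM. Adora1 at 0.796 and Adk at 0.783, both CpG-rich, were above the upper quartile of 19.7 FPKM. The 6 below the lower quartile, all CpG-rich, were P2ry1, P2ry2, Adora2b, Entpd7, Nt5e and Ada. In the classes under 0.3 the lower quartile was 0 FPKM, so no gene there could lie below it. That the 6 were all CpG-rich is therefore partly fixed by the classes. P2ry2, at 0.826, stood at 0.186 FPKM under a lower quartile of 3.46 FPKM. P2ry13 at 0.448 and P2ry14 at 0.219 lay between the quartiles. Methylation itself was not analysed here.

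**Figure D4:**
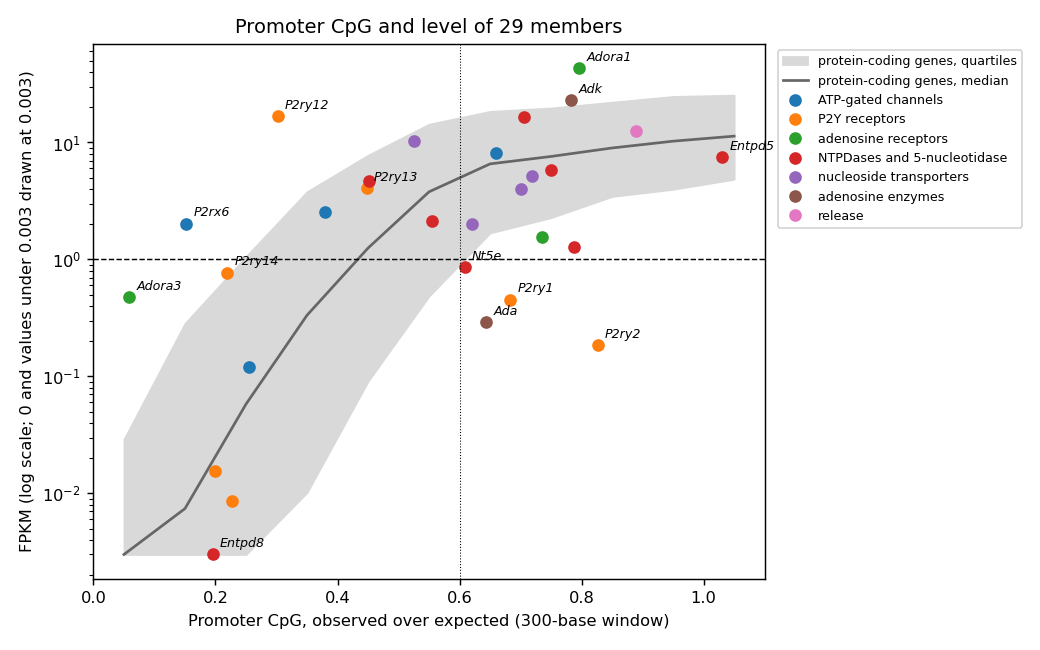
FPKM (log axis) of the 29 members with a promoter entry against CpG observed over expected of the promoter window, coloured by role, over the median (line) and quartiles (band) of 16564 protein-coding genes; the dashed line marks 1 FPKM and the dotted line 0.6. P2ry12 at 16.9 FPKM lies above the band at 0.302, and P2ry2 at 0.186 FPKM lies below it at 0.826.

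Short motifs were searched on both strands of the 250 bases before the start, each on its own, so that matches of different motifs may share bases. The GC box GGGCGG was in 13 of 29 members (44.8%), against 43.9% of protein-coding genes. GAGGAA, a form of the site bound by the myeloid factor PU.1, was in 9 of 29 (31.0%), against 22.1%. The 9 were P2rx6, P2ry4, P2ry13, P2ry14, Adora3, Entpd5, Entpd6, Slc29a1 and Slc29a2. The P2ry12 stretch did not hold GAGGAA, but it holds the shorter GGAA, which was not counted, so a site for PU.1 there was not tested. The TATA box core TATAAA was in 2 of 29, P2rx6 and Slc29a4, against 11.8%.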

How the data were processed

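RNA was measured in 1 sample of mPFC. Per the labels' protocols, it was extracted with Tri-reagent and DNase treated, and the TruSeq v2 kit gave the libraries. The submitters' processing notes list CASAVA 1.8.2, TopHat, Cufflinks and the build mm10. Not given in the sources used here are the annotation, how strand was used and how replicates were combined. The authors deposited FPKM for 46073 Ensembl genes in 2 columns that held the same value in 46073 rows, and these were counted as 1 sample.

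Identifiers were matched to symbols (45139 rows), and 20635 rows were protein coding in RefSeq for GRCm38.p6, the assembly of mm10. Spans and promoters came from RefSeq. Where a gene had several promoter windows, the most upstream was used. No test was run. The functions were tested on simulated data.

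The members, lists, pairs and the 1 FPKM level were chosen with earlier results of these data known. The promoter classes, motifs, signalling classes and the grouping of other metabolic genes were chosen after values were seen. All 38 members are named. Of the other lists, the rule names the 5 highest metabolic genes and those at 0, the highest and lowest markers, overlapping genes, and markers of microglia and striatum; Mbp, Gja1, the Slc28a genes, Pf4, Gp9, Gpr171 and the mitochondrial genes were added after their values were seen. Pnp, in the list of 35 metabolic genes, was not analysed here. Not every gene named by this rule is reported here, though all enter the counts and medians. Alternatives covered the detection level, the scaling, the pseudocount, the background and the promoter window. The tools were pandas 2.3.3 and numpy 2.4.6 under Python 3.11.15, with matplotlib 3.10.9 for figures.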

Additional observations from a re-analysis of the deposited data

How the results depend on the processing

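With 1 value per gene nothing could be left out, and planned repeats without each replicate were not run. No paired analysis was possible because there is 1 RNA sample. Depth is unknown, so levels near 0 carry an unknown counting error. The detected count of 21 was 32 at 0.1 FPKM and 11 at 5 FPKM. At 0.1, 0.5 and 5 FPKM the P2Y count of 2 was 6, 4 and 1. The count of 3 ATP-gated channels was 6 at 0.1 and 1 at 5 FPKM. At 5 FPKM 1 adenosine receptor, 3 nucleotide-cleaving enzymes and 2 transporters were at or above the level, and at 0.1 FPKM both adenosine enzymes (2). Rescaled to sum to 1000000 without mitochondrial rows, which hold 50.04% of summed FPKM, 5 ATP-gated channels and 5 P2Y genes were at 1 or more; this multiplies each value by 2.54. The median of 1.76 FPKM was 5.19 over detected members. The difference of promoter medians between detected and other members, 0.460 in CpG observed over expected, kept its direction in G+C content at 4.83 percentage points. CpG-rich from 0.75, added after seeing the data, left 7 of 16 members. Of 23 fold ratios 11 moved by over 1.5 times with FPKM + 1 and 1 with FPKM + 0.1, and 0 changed direction. Of 38 percentiles 23 moved by over 1.5 times against all rows.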
